A study of Homo sapiens with 4 samples.

Results

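The circles of CAMSAP1 (hsa_circ_0001900) and UBXN7 (hsa_circ_0001380) held the first places among the circular RNAs of MiaPaCa-2 cells. They are 2 of the 80821 identifiers of the circRNA table, of which 29586 had at least 1 count, and they were chosen by their measured counts in the MiaPaCa-2 libraries: the CAMSAP1 circle had most counts of all identifiers in control and the UBXN7 circle had most in the treated library. Their MiaPaCa-2 levels and ranks, the ratios between them and between treatments there, and the line differences are therefore given as a description, and the intervals beside them show counting error without testing anything. The table lists identifiers and counts only, and the host names are those known for these numbers of circBase, the public catalogue of circRNAs; they were not checked against an annotation here.

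The study counted back-splice reads, which span the junction that closes a circle, in MiaPaCa-2 and PANC-1, established lines of human pancreatic ductal adenocarcinoma. Each line had 1 untreated control library and 1 library of cells given thymoquinone (TQ), the main bioactive quinone of black seed, for 24 h, at 20 µM in MiaPaCa-2 and 10 µM in PANC-1. The dose differed between the lines, so an effect of dose and one of the line cannot be told apart. With 4 libraries and 1 per group there is no replicate spread, and every interval below covers counting error only. The libraries summed to 45094 counts (untreated MiaPaCa-2), 15819 (treated MiaPaCa-2), 48631 (untreated PANC-1) and 67964 (treated PANC-1). These are sums of back-splice counts, and how many reads each library had in all is not known here. The lowest count of either circle was 106, for the UBXN7 circle in untreated PANC-1. The lines could not be checked against marker genes, since linear RNA was digested and only circles were counted.

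A circRNA forms when a downstream splice donor joins an upstream acceptor of the same transcript. It has no free ends, resists exonucleases such as ribonuclease R and usually outlives the linear messenger RNA of its host gene. CAMSAP1 encodes a protein that binds the minus ends of microtubules, and UBXN7 encodes an adaptor between the ATPase VCP and ubiquitylated proteins. Circles of both genes have been described in human tumours. In GENCODE release 29 on GRCh38, CAMSAP1 (ENSG00000130559.18) lies on the minus strand of chromosome 9 from 135808487 to 135907228 and UBXN7 (ENSG00000163960.11) on the minus strand of chromosome 3 from 196347662 to 196432474. These are the spans of the host genes. The exons inside each circle, its junction position and its sequence were not analysed here, and neither was the linear RNA of either gene.

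The CAMSAP1 circle had 410 counts in untreated MiaPaCa-2, 143 in treated MiaPaCa-2, 143 in untreated PANC-1 and 153 in treated PANC-1. It ranked 1 of 11105 detected identifiers, 2 of 5089, 9 of 12081 and 13 of 14965 in the same order. Both MiaPaCa-2 libraries thus had it at the very top, and both PANC-1 libraries had it lower but still near the top. Its share of all counts was 0.909% in untreated MiaPaCa-2 (95% Clopper-Pearson interval 0.824 to 1.001) and 0.904% in treated MiaPaCa-2 (0.762 to 1.06). In PANC-1 the share was 0.294% in control (0.248 to 0.346) and 0.225% in TQ (0.191 to 0.264). The intervals of the 2 lines do not overlap, but the circle was chosen for its MiaPaCa-2 counts, so nothing is read from that gap. In bulk libraries such as these, fewer cells with a circle and less of it per cell cannot be told apart.

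The UBXN7 circle had 263 counts in untreated MiaPaCa-2, 154 in treated MiaPaCa-2, 106 in untreated PANC-1 and 154 in treated PANC-1. It ranked 3, 1, 17 and 11 in these libraries, tied at the last of these with 1 other identifier. Its share was 0.583% in untreated MiaPaCa-2 (0.515 to 0.658) and 0.974% in treated MiaPaCa-2 (0.826 to 1.14), so that the treated library had the higher share. In PANC-1 the share was 0.218% in control (0.178 to 0.264) and 0.227% in TQ (0.192 to 0.265), which overlap almost fully. Again neither PANC-1 interval reached a MiaPaCa-2 one, a gap that the choice favours and that tests nothing.

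**Figure D1:**
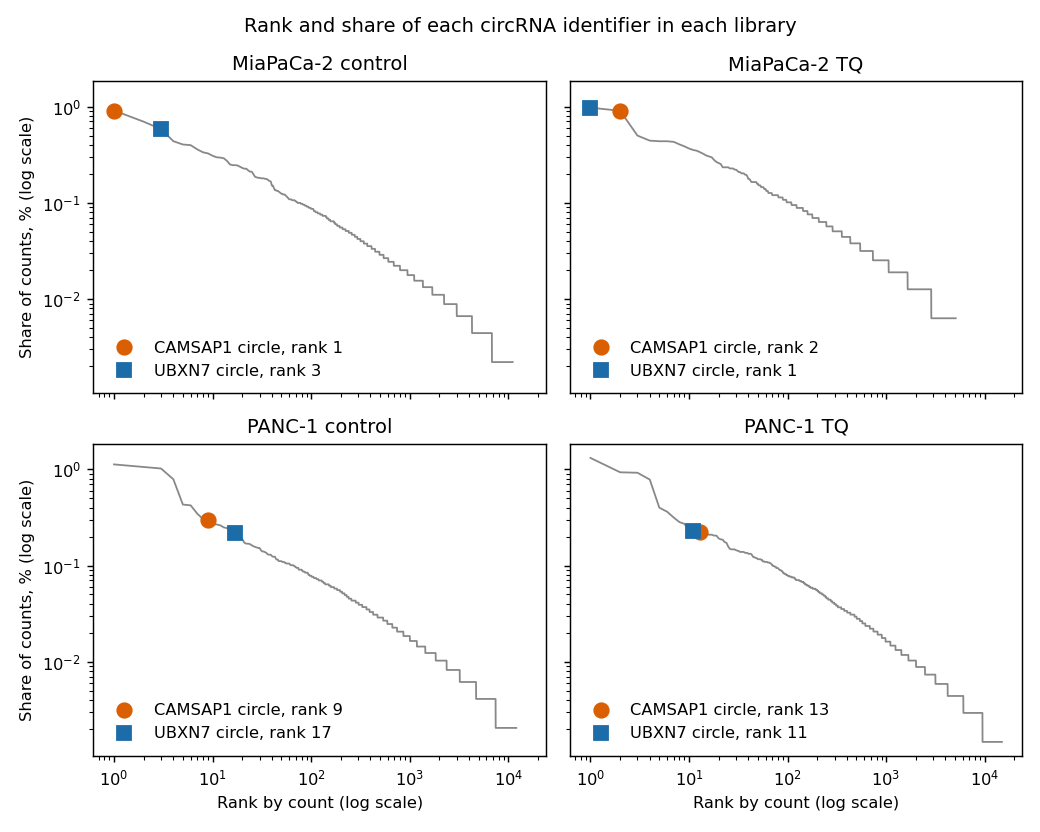
Share of all counts (percent, log scale) against rank by count (log scale) for each detected identifier, 1 panel per library; the grey line is the whole library and the symbols are the CAMSAP1 circle (orange) and UBXN7 circle (blue). Both circles sit at ranks 1 to 3 in the MiaPaCa-2 panels and at ranks 9 to 17 in the PANC-1 panels.

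Together the 2 circles took 1.49% of the counts in untreated MiaPaCa-2 (1.38 to 1.61) and 1.88% in treated MiaPaCa-2 (1.67 to 2.10). In PANC-1 they took 0.512% in control (0.451 to 0.580) and 0.452% in TQ (0.403 to 0.505). They made up 31.4% of the counts of the top 10 identifiers in untreated MiaPaCa-2 and 35.6% in treated MiaPaCa-2, against 8.47% and 7.79% in untreated and treated PANC-1. The median detected identifier had 2 counts in every library. In treated MiaPaCa-2 these 2 circles were the only identifiers with at least 100 counts, while 22 identifiers reached that number in untreated MiaPaCa-2, 18 in untreated PANC-1 and 29 in treated PANC-1, whose total counts were all higher.

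The places at the top, which the choice used, were spaced as follows. In untreated MiaPaCa-2 the CAMSAP1 circle had 1.31 times (95% interval 1.12 to 1.52) the count of the next identifier, the circle of the protein kinase gene HIPK3 (hsa_circ_0000284), which had 314. The UBXN7 circle followed with 0.838 times (0.708 to 0.990) the HIPK3 count, and it had 1.34 times (1.11 to 1.61) the count of the fourth identifier. In TQ the UBXN7 circle had 1.08 times (0.852 to 1.36) the count of the CAMSAP1 circle, 154 against 143. The third identifier there, circRNA715, had 79 counts, and the CAMSAP1 circle had 1.81 times as many (1.37 to 2.41). Around the edge of the choice, the counts were thus 143 inside and 79 outside in TQ, and in control 263 for the UBXN7 circle between 314 for HIPK3 and 197 for the fourth identifier, hsa_circ_0001009, which was named after its values were seen.

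In PANC-1 other circles led. The first 3 places in both PANC-1 libraries belonged to hsa_circ_0001006, with 546 counts untreated and 891 treated, circRNA1218, with 513 and 632, and circRNA12135, with 495 and 625. The CAMSAP1 circle had 0.262 times (95% interval 0.216 to 0.315) the count of hsa_circ_0001006 in untreated PANC-1 and 0.172 times (0.144 to 0.204) in treated PANC-1. In MiaPaCa-2 the order was turned, with 2.25 times (1.89 to 2.70) in control and 2.34 times (1.73 to 3.22) in TQ. The UBXN7 circle had 0.194 (0.156 to 0.239) and 0.173 (0.145 to 0.205) times the count of hsa_circ_0001006 in untreated and treated PANC-1, and 1.45 (1.19 to 1.76) and 2.52 (1.87 to 3.45) times in MiaPaCa-2. Such ratios within a library do not depend on how the libraries are scaled. The turned order is favoured by the choices, since hsa_circ_0001006 was named for leading PANC-1 and the 2 circles for leading MiaPaCa-2. It is a description, and nothing is read from it.

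To compare libraries, counts were divided by library scales from TMM, a trimmed mean of ratios between libraries, with a geometric mean of 1. The normalised count of the CAMSAP1 circle was 358 in untreated MiaPaCa-2 (95% Poisson interval 324 to 394), 299 in treated MiaPaCa-2 (252 to 352), 124 in untreated PANC-1 (105 to 147) and 96.4 in treated PANC-1 (81.7 to 113). The neighbours untreated MiaPaCa-2 and treated MiaPaCa-2 in that order had a ratio of 1.20 (99% interval 0.930 to 1.55), and untreated PANC-1 and treated PANC-1 one of 1.29 (0.950 to 1.75), so both 99% intervals include 1. The step from treated MiaPaCa-2 down to untreated PANC-1 was 2.40-fold (1.76 to 3.28).

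For the UBXN7 circle the normalised count was 322 in treated MiaPaCa-2 (273 to 377), 229 in untreated MiaPaCa-2 (202 to 259), 97.0 in treated PANC-1 (82.3 to 114) and 92.2 in untreated PANC-1 (75.5 to 112). The libraries thus stood in another order within each line than for the CAMSAP1 circle. The step from untreated MiaPaCa-2 down to treated PANC-1 was 2.37-fold (99% interval 1.82 to 3.10), and the PANC-1 neighbours had a ratio of 1.05 (0.756 to 1.47), within counting error.

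**Figure D2:**
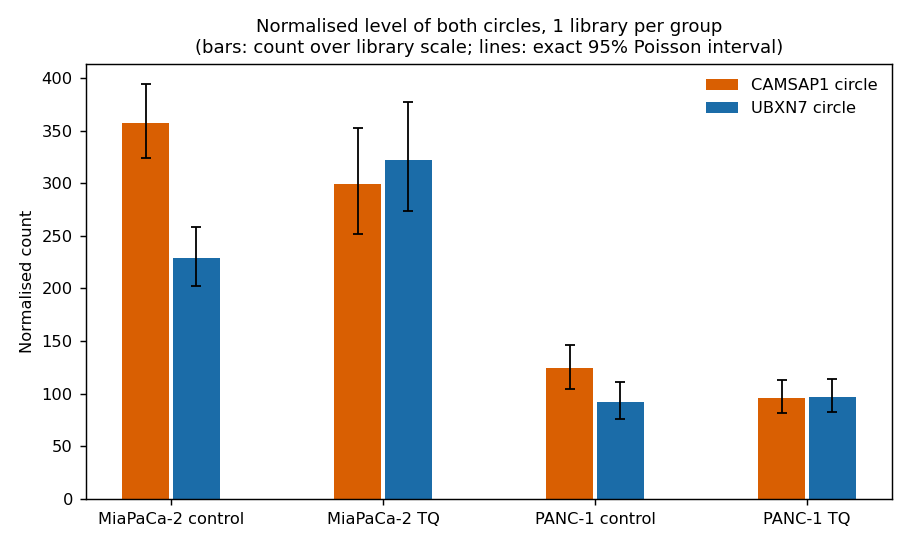
Normalised count (count divided by library scale, linear axis from 0) of the CAMSAP1 circle (orange) and the UBXN7 circle (blue) in the 4 libraries, with exact 95% Poisson intervals as lines. The MiaPaCa-2 bars run from 229 to 358 and the PANC-1 bars from 92.2 to 124; the CAMSAP1 bar is the taller of the pair in both controls.

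Both circles were higher in MiaPaCa-2 than in PANC-1 at each treatment. In the control libraries the normalised ratio of MiaPaCa-2 to PANC-1 was 2.87 (99% interval 2.24 to 3.73) for the CAMSAP1 circle and 2.49 (1.85 to 3.39) for the UBXN7 circle. In the TQ libraries it was 3.10 (2.28 to 4.22) and 3.32 (2.46 to 4.49). All 4 ratios met the rule of size used here, which needs 10 or more counts over the compared pair of libraries, a 2-fold or larger difference and a 99% interval without 1. Of all identifiers with 10 counts, 13.2% of 1811 were called higher in MiaPaCa-2 in control and 9.01% of 1598 in TQ. Since the choice of the circles used these levels, nothing is read from their share against that background. In the edgeR fit over all 4 libraries the log2 difference of MiaPaCa-2 minus PANC-1 was 1.58 (SE 0.18) for the CAMSAP1 circle and 1.52 (SE 0.22) for the UBXN7 circle, given without a test for the same reason.

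Large as they were in counts, the line differences of these circles were not the largest in fold. Of 1145 identifiers that reached 10 counts in both comparisons, 55 (4.80%) were called higher in MiaPaCa-2 at both treatments, and the CAMSAP1 and UBXN7 circles were ranked 1 and 2 of these by summed counts. Of the 55, 14 had 0 counts in untreated PANC-1 and 7 in treated PANC-1. By ratio, 47 of the 55 stood above the CAMSAP1 circle and 51 above the UBXN7 circle in control, where the median of the 55 was 6.35. In TQ 44 and 41 stood above them, with a median of 5.54. The 55 were called by this same ratio, and identifiers with few counts meet the rule of size only at large ratios. Low places for the 2 circles with most counts are therefore favoured by the rule, and nothing is read from them. Of 53 identifiers that reached 100 counts over the control libraries, 41 had a lower ratio than the CAMSAP1 circle and 11 a higher one. For the UBXN7 circle 37 were lower and 15 higher, and the median was 1.23. Among the 41 with 100 counts over the TQ libraries, 38 had a lower ratio than the CAMSAP1 circle and 39 a lower one than the UBXN7 circle, with a median of 0.565. These circles thus stood near the upper end of that group, a place that their choice for high MiaPaCa-2 counts favours. In treated MiaPaCa-2 only these 2 circles had at least 100 counts, against 29 identifiers in treated PANC-1. The other identifiers thus reached the minimum of 100 more readily through PANC-1, which favours low ratios, and nothing is read from that place. Over all 1598 identifiers with 10 counts in TQ the median was 0.502. The treated PANC-1 library had the higher total, 67964 against 15819. Whether the totals, the minimum of counts or the scaling lie behind these low medians was not tested. With TMM over every identifier with a count, the CAMSAP1 ratio in TQ was 1.94 and no longer met the rule of size.

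**Figure D3:**
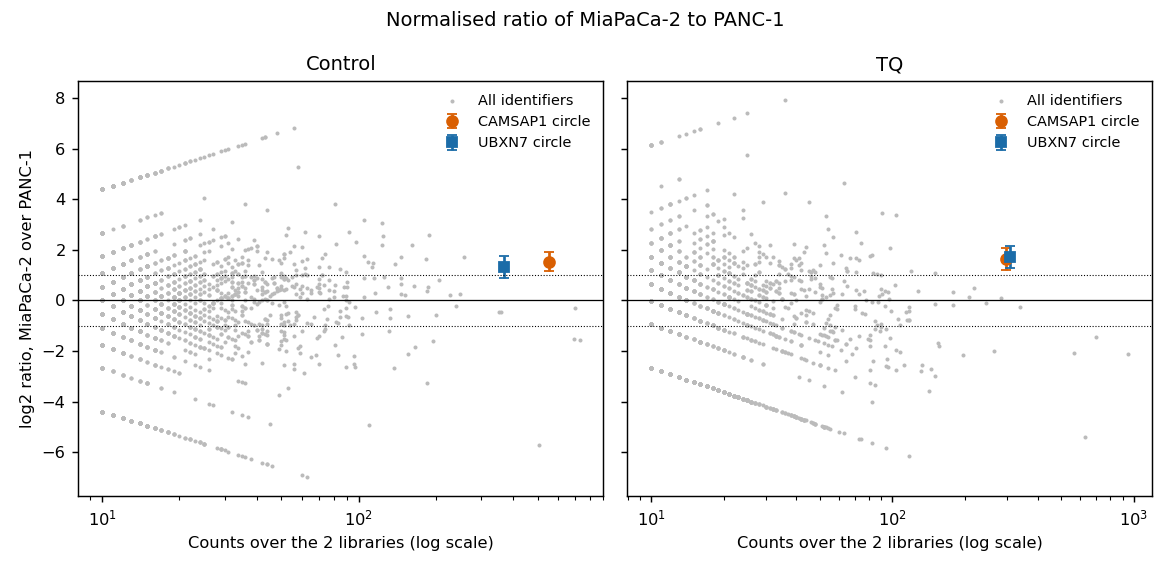
log2 normalised ratio of MiaPaCa-2 to PANC-1 against the counts over the 2 libraries (log scale), control on the left and TQ on the right; grey points are identifiers with at least 10 counts (0.5 added per library), coloured symbols are the CAMSAP1 and UBXN7 circles with 99% intervals, and dotted lines mark 2-fold. Both circles lie above the upper dotted line in both panels, and many identifiers with fewer counts lie above them.

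In the scaling used, the CAMSAP1 circle had a lower normalised count in TQ than in control in each line, with 99% intervals that include 1. Its normalised ratio of TQ to control was 0.837 (99% interval 0.645 to 1.07) in MiaPaCa-2, from 143 against 410 counts, and 0.774 (0.570 to 1.05) in PANC-1, from 153 against 143. At 95% the interval still included 1 in MiaPaCa-2 (0.687 to 1.01) and excluded it in PANC-1 (0.612 to 0.980). Neither ratio met the rule of size, by which 6.55% of 1130 identifiers were called lower and 4.07% higher in MiaPaCa-2, and 3.19% and 5.68% of 2289 in PANC-1. The median ratio over these identifiers was 0.800 in MiaPaCa-2, below the 0.837 of the CAMSAP1 circle, and 1.005 in PANC-1. In PANC-1, whose levels did not enter the choice of the circles, the 99% interval leaves room for a decrease to 0.570 of control and for an increase of 1.05-fold. Between the lines the ratio differed 1.08-fold, MiaPaCa-2 over PANC-1 (99% interval 0.723 to 1.61). The side of 1 on which the MiaPaCa-2 ratio lay depended on the scaling, since it was 0.994 with total counts and 1.003 with a median ratio of abundant identifiers. With TMM over every identifier with a count it was 0.594, further below 1. The intervals given here are those of the scaling used.

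The UBXN7 circle had a TQ to control ratio of 1.40 (99% interval 1.07 to 1.83) in MiaPaCa-2, from 154 against 263 counts. This circle was chosen for leading the treated library, which favours a high ratio, so nothing is read from that interval. The ratio was under 2, and with TMM over every identifier it was 0.997. In PANC-1 the ratio was 1.05 (0.756 to 1.47), from 154 against 106 counts, and the interval leaves room for changes between these bounds. Between the lines the ratio differed 1.34-fold, MiaPaCa-2 over PANC-1 (0.868 to 2.05), which includes 1 and rests in part on the same choice.

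Read against the other abundant identifiers, neither circle was at an end of the range. Of 41 identifiers that reached 100 counts in MiaPaCa-2, whose TQ to control ratios ran from 0.283 to 3.16 with a median of 0.925, 16 lay below the CAMSAP1 circle and 33 below the UBXN7 circle. By the rule of size 10 of these 41 were called lower and 1 higher. In untreated MiaPaCa-2 22 identifiers had at least 100 counts, and in the treated library only these 2 circles did. The minimum was thus reached more readily through control, which favours low ratios among the 41. Of the 90 such identifiers in PANC-1, which ran from 0.458 to 2.29 with a median of 1.06, 16 lay below the CAMSAP1 circle and 44 below the UBXN7 circle. The HIPK3 circle, which stood between them in untreated MiaPaCa-2, fell to rank 22 in treated MiaPaCa-2 with 37 counts, the lowest ratio of the 41. The count of the CAMSAP1 circle over that of HIPK3 was accordingly 1.31 (95% interval 1.12 to 1.52) in untreated MiaPaCa-2 and 3.86 (2.68 to 5.71) in treated MiaPaCa-2, against 0.373 (0.306 to 0.454) and 0.288 (0.239 to 0.346) in untreated and treated PANC-1.

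**Figure D4:**
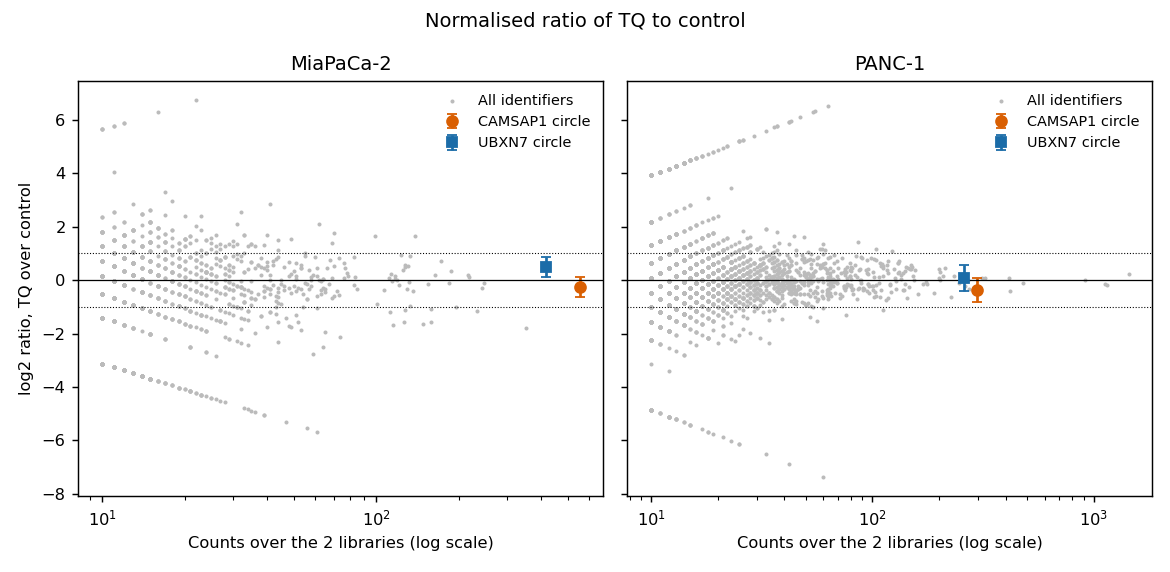
log2 normalised ratio of TQ to control against the counts over the 2 libraries (log scale), MiaPaCa-2 on the left and PANC-1 on the right; grey points are identifiers with at least 10 counts (0.5 added per library), coloured symbols are the CAMSAP1 and UBXN7 circles with 99% intervals, and dotted lines mark 2-fold. All 4 coloured symbols lie between the dotted lines, with the CAMSAP1 circle below 0 and the UBXN7 circle above 0 in both panels; with other scalings described in the text single symbols cross 0.

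In a fit of all libraries with cell line as a term, edgeR gave a log2 difference of TQ minus control of -0.31 (SE 0.18) for the CAMSAP1 circle. For the UBXN7 circle it was 0.28 (SE 0.22). No p is given for either, since the MiaPaCa-2 libraries of this fit also served to choose the circles. Leading the control favours a negative value for the CAMSAP1 circle, and leading the TQ library a positive one for the UBXN7 circle. The direction was the same in both lines for each circle in the scaling used. Over all identifiers, edgeR's quasi-likelihood test had 1 residual degree of freedom and called 0 of 827 (0%), with 5 at an unadjusted p under 0.05, and DESeq2 called 0 with 8. A missed threshold in this design does not show that TQ left the circles as they were.

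The balance between the 2 circles can be read without any library scale. The count of the UBXN7 circle over that of the CAMSAP1 circle was 0.641 in untreated MiaPaCa-2 (95% interval 0.547 to 0.751) and 1.08 in treated MiaPaCa-2 (0.852 to 1.36). In PANC-1 it was 0.741 in control (0.571 to 0.960) and 1.01 in TQ (0.799 to 1.27). In untreated MiaPaCa-2 the lead of the CAMSAP1 circle was part of the choice. In PANC-1, which the choice did not use, the CAMSAP1 circle was the more abundant in control by an interval that excludes 1, and in TQ the interval included 1. The TQ balance divided by the control balance was 1.68 (99% interval 1.16 to 2.43) in MiaPaCa-2. This value is a description, since one circle was chosen for leading the control and the other for leading the TQ library there. In PANC-1 it was 1.36 (0.861 to 2.14), on the same side of 1 with an interval that includes 1, also at 95% (0.957 to 1.93). Between the lines the balance differed by 0.865 (0.582 to 1.29) in control and 1.07 (0.695 to 1.65) in TQ, MiaPaCa-2 over PANC-1.

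**Figure D5:**
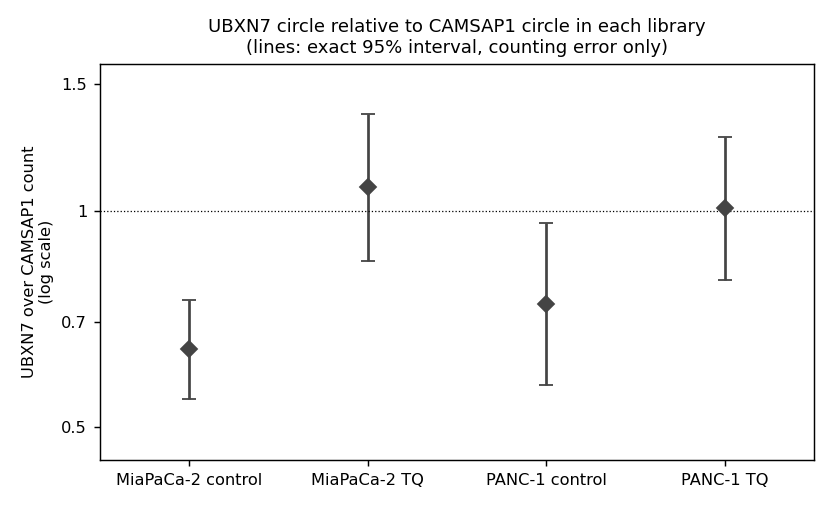
Count of the UBXN7 circle over count of the CAMSAP1 circle (log scale) in each of the 4 libraries, with exact 95% intervals that cover counting error only and a dotted line at 1. The controls lie at 0.641 and 0.741, below the line with their intervals, and the TQ libraries lie at 1.08 and 1.01 with intervals that include 1.

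Likeness of pattern to other identifiers was measured as the root mean square difference of centred log2 normalised counts over 4 libraries, among identifiers with at least 100 counts in all. The 2 circles differed by 0.31 on that scale, a value that in part restates the choice, since both were taken for high counts in the MiaPaCa-2 libraries. The UBXN7 circle was the 8th nearest of 173 other identifiers to the CAMSAP1 circle, where the median distance was 1.08, and the CAMSAP1 circle the 12th nearest to the UBXN7 circle, with a median of 1.04. Nearest to the CAMSAP1 circle were hsa_circ_0008500 (distance 0.11), with 113 and 42 counts in untreated and treated MiaPaCa-2 and 34 and 40 in PANC-1, and hsa_circ_0007001 (0.11), with 84, 35, 30 and 36 in the same order. Nearest to the UBXN7 circle were hsa_circ_0007701 (0.13), with 42, 31, 20 and 30 counts, and hsa_circ_0003270 (0.19), with 58, 26, 16 and 31. These neighbours had the same lean toward MiaPaCa-2 at lower counts, as follows from picking them for likeness. With 4 libraries such a likeness is a description only.

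Among well known circles both directions occurred between the lines. The list of 12 circles by circBase identifier was chosen with earlier results of these data known. Of the 12, 10 were in the table, and 8 of these had at least 10 counts over the control libraries. There 1 was called higher in MiaPaCa-2, where 13.2% of all identifiers were, and 2 were called lower, where 15.5% were. The higher one was the circle of LDLRAD3 (hsa_circ_0006988) with 81 against 28 counts and a ratio of 2.90 (99% interval 1.65 to 5.37). The lower ones were the circles of SETD3 (hsa_circ_0000567), a methyltransferase gene, with 48 against 148 counts, and RHOBTB3 (hsa_circ_0007444) with 3 against 46. The median ratio of the 8 was 0.802, against 1.002 over all 1811 identifiers. In the TQ libraries 0 of 9 were called higher and 4 lower (12.4% of all identifiers were lower), with a median of 0.761 against 0.502 over all 1598. The circle of the zinc finger gene ZKSCAN1 (hsa_circ_0001727) had 83 against 43 counts in control, a ratio of 1.93 (1.18 to 3.24), and that of the coronin gene CORO1C (hsa_circ_0000437) 111 against 130, a ratio of 0.856 (0.607 to 1.20). For TQ against control, 2 of 7 listed circles with 10 counts were called lower in MiaPaCa-2, those of HIPK3 and SETD3, where 6.55% of all identifiers were. Since the list was made with earlier results known, no excess over the background is read from this. In PANC-1 0 of 9 were called, where 5.68% of all identifiers were higher and 3.19% lower, so that a count of 0 is near the background.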

How the data were processed

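The authors deposited 1 table that gives, for each circRNA identifier and each of 4 libraries, a raw whole-number count of reads across the back-splice junction. Per the labels' protocols, ribosomal RNA was removed, linear RNA was digested with ribonuclease R and strand-specific paired libraries were sequenced. The submitters' processing notes list the build GRCh38.p13, the aligners TopHat, TopHat2 and Bowtie2, edgeR, FastQC and cutadapt. The circRNA caller is not given in the sources. Digestion, depth and PCR copies all enter a count, and copies could not be removed.

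The 51235 identifiers at 0 in every library were left out. Scales came from TMM (edgeR) on 827 identifiers kept by filterByExpr with treatment as the group. The TQ scale was 0.417 of control in MiaPaCa-2 and 1.38 in PANC-1. Ratios have exact conditional binomial intervals, and ratios of ratios exact conditional odds ratio intervals. edgeR's quasi-likelihood fit had terms for cell line and treatment, with Benjamini-Hochberg adjustment over all 827. Scripts were tested on simulated data.

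The members, the known circles and the tests were chosen with earlier results of these data known. Named were both circles, ranks 1 to 3 of each library, the 2 nearest in pattern to each and the known circles. Alternatives were 5 other scalings, DESeq2, no filter, a 95% interval, other minimums, other denominators of the shares and leaving out each library. Python 3.11.15 ran with scipy 1.17.1 and numpy 2.4.6, and R 4.3.3 with DESeq2 1.42.0 and edgeR 4.0.16.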

Additional observations from a re-analysis of the deposited data

How the results depend on the processing

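The TQ to control ratios of both circles missed the rule of size under all 5 other scalings. A 95% interval could not change the calls in the scaling used, since no ratio there reached a 2-fold difference. With TMM over every identifier with a count, the MiaPaCa-2 ratio was 0.594 for the CAMSAP1 circle and 0.997 for the UBXN7 circle. With the other scalings the CAMSAP1 ratio ran up to 1.003 and the UBXN7 ratio up to 1.68. In PANC-1 the CAMSAP1 ratio ran from 0.728 to 0.890 and the UBXN7 ratio from 0.988 to 1.21. The median log2 ratio of the 1130 MiaPaCa-2 identifiers was -0.32 in the scaling used; TMM over every identifier moved it to -0.82 and total counts to -0.07.

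MiaPaCa-2 over PANC-1 in control kept its call under all 5. In TQ, TMM over every identifier gave 1.94 for the CAMSAP1 circle, under the rule of size, and 2.07 for the UBXN7 circle. The median ratio of abundant identifiers gave 3.96 and 4.24, and total counts gave 4.02 and 4.30. With total counts in edgeR the line difference on the log2 scale was 1.81 for the CAMSAP1 circle and 1.76 for the UBXN7 circle. Without each library in turn, a value with no test since no residual degrees of freedom are left, it ran from 1.35 to 1.61 and from 1.20 to 1.54. The TQ term ran from -0.37 to -0.31 for the CAMSAP1 circle and from 0.12 to 0.42 for the UBXN7 circle in the same fits. Each such fit compares treatments within a single line and lines at a single treatment, so these ranges are not the spread of a joint estimate. For the UBXN7 circle the TQ term was 0.12 and 0.13 without a MiaPaCa-2 library, and 0.37 and 0.42 without a PANC-1 library. With DESeq2 size factors in edgeR, 1 identifier was called for TQ, and it was neither circle. The cause of these shifts was not tested.

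Calls over all identifiers also moved with the scaling. In MiaPaCa-2, 46 were higher and 74 lower in TQ with the scaling used, 24 and 169 with TMM over every identifier, 83 and 48 with the median ratio of abundant identifiers, 82 and 49 with total counts, and 140 higher with no minimum of counts. In PANC-1 150 were lower with no minimum, against 73. Shares taken over circBase identifiers alone were higher for both circles in all 4 libraries, at 1.30% and 0.831% for the CAMSAP1 and UBXN7 circles in MiaPaCa-2 control and 1.33% and 1.43% in MiaPaCa-2 TQ, with ranks of 1, 3, 2 and 1 as before. With 1 library per group there were no replicates to pair. The fit of the TQ term already compares treatments within each cell line. The total count was lowest in MiaPaCa-2 TQ, where how many reads were sequenced in all is not known here.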
